A study of Homo sapiens with 6 samples.

Results

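The 10 genes described here encode subunits of the transcription factor AP-1 and products of other immediate early genes. They were chosen by symbol from the 13439 genes of the deposited expression table: JUN, JUNB, JUND, FOSL1, FOSL2, EGR1, IER2, IER3, DUSP1 and DUSP5. All 10 were listed, and all 10 passed the filter of a mean of at least 1 CPM (read counts relative to a library size scaled by the TMM method), as did 11069 genes in all. The libraries came from Saos-2, an established human osteosarcoma line grown in 10% fetal bovine serum. In 3 libraries the cells had received 0.20 µM AIL for 24 h, and in the 3 others the solvent DMSO for 24 h. AIL is ailanthone, a plant quassinoid, and 0.20 µM is its IC50 per the labels. The replicates are called biological in the labels, with nothing on separate cultures, so the p-values cover the spread between these 6 libraries only. The study asked which pathways AIL altered in this line.

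Immediate early genes are switched on within minutes of a growth factor or stress signal, without new protein synthesis, and their transcripts are short-lived. AP-1 is a dimer of basic leucine zipper proteins in which a Jun subunit pairs with a Fos, ATF or second Jun subunit, and it binds sites in the promoters of genes for proliferation, invasion and matrix breakdown. MAP kinases of the ERK, JNK and p38 classes act upstream of these genes. Several of the gene products feed back on the kinases, among them the dual-specificity phosphatases DUSP1 and DUSP5. Libraries made at 24 h, as here, come long after the early pulse of such transcripts.

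After 24 h in AIL, both phosphatase transcripts, IER3 and IER2 rose, and EGR1 and JUN fell. The ratio of mean CPM, AIL over DMSO, was 1.54 for DUSP1, 1.42 for IER3 and 1.34 for DUSP5, and 0.81 for EGR1. JUNB, JUND, FOSL1 and FOSL2 did not pass the test. Of the 10 genes, 4 were called higher and 2 lower (limma, adjusted p under 0.05 over all genes tested). Among all genes tested, 28.2% were called higher and 25.9% lower, 54.1% together, so 6 calls among 10 genes is close to the share over the whole table. For 7 of the 10 genes the libraries of AIL and DMSO were fully apart, against 60.1% of all genes tested, with AIL above DMSO for 4 of them (30.9% of all genes tested) and below it for 3 (29.2%). By size, 3 of the 10 had a log2 difference of at least 0.4 in either direction, against 6.68% of all genes tested. This cut was not among the planned settings, and DUSP5 lay just above it at 0.42. The 10 genes were also chosen with earlier results of these data known, and whether they differ from all genes in this share was not tested. Without a cut, the median absolute log2 difference was 0.17 over the 10 genes and 0.13 over all genes tested. The median log2 difference was 0.03 over the 10 genes and 0.01 over all genes tested.

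The sequences just before the gene starts are shown for 4 of the genes, because known response elements in them mark 2 called genes of opposite direction (DUSP1 and EGR1), JUN, and an uncalled gene that holds the same element as DUSP1 (JUND). RefSeq (GRCh38.p14) gave a promoter for 7 of the 10 genes, all but FOSL1, IER3 and DUSP5. Each run below is the 250 bases before the RefSeq gene start, 5′ to 3′ on the strand of the gene, at chr5:172771196-172771445 (minus strand) for DUSP1, chr19:18281623-18281872 (minus strand) for JUND, chr5:138465229-138465478 (plus strand) for EGR1 and chr1:58784048-58784297 (minus strand) for JUN. Capitals mark the cAMP response element (CRE) in DUSP1 and JUND, the CArG boxes bound by serum response factor in EGR1, and the jun1 and jun2 elements bound by AP-1 and ATF dimers in JUN.
DUSP1: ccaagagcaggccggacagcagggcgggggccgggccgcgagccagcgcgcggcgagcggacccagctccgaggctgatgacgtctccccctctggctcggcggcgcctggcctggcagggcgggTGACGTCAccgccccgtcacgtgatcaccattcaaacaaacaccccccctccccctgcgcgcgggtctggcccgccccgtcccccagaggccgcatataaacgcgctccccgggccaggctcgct
JUND: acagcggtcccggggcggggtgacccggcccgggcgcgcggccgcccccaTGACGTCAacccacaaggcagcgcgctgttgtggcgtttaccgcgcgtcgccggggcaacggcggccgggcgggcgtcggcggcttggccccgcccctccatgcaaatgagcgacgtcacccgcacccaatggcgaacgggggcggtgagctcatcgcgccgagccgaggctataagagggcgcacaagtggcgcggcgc
EGR1: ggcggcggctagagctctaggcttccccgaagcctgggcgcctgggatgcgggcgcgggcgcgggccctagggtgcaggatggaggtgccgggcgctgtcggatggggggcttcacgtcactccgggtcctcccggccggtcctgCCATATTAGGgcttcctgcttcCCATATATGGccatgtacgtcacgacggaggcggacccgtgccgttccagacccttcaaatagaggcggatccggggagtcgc
JUN: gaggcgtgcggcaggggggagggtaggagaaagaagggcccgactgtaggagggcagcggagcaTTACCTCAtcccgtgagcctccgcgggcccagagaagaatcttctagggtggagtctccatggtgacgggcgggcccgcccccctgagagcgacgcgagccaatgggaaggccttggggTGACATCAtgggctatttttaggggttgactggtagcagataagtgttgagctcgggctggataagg

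The letters of 7 motifs were searched on both strands of these 250 bases, and no match overlapped a match of another motif. The CRE (TGACGTCA) occurred in DUSP1 at -125 to -118 and in JUND at -200 to -193, counted in bases from the gene start, and in 1.65% of the 35116 promoters of the table. EGR1 held CArG boxes at -105 to -96 and at -83 to -74, and 1.16% of all promoters held at least 1. It also held an EGR site (GCGNGGGCG, in 8.41% of all promoters) at -198 to -190. The JUN promoter held jun1 (TGACATCA, in 2.37% of all promoters) at -67 to -60 and jun2 (TTACCTCA, in 0.644%) at -186 to -179. A TATA box (TATAAA, in 10.7%) lay at -30 to -25 in DUSP1 and at -31 to -26 in JUNB. The AP-1 site TGANTCA, found in 6.57% of all promoters, had 0 matches in the 7 promoters, and IER2 and FOSL2 held none of the 7 motifs in this window. These matches describe letters and not binding. DUSP1, called higher, and JUND, not called, held the same CRE letters at different positions. Near matches of the motifs were not searched, and any link between a motif and a call was not tested.

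**Figure D1:**
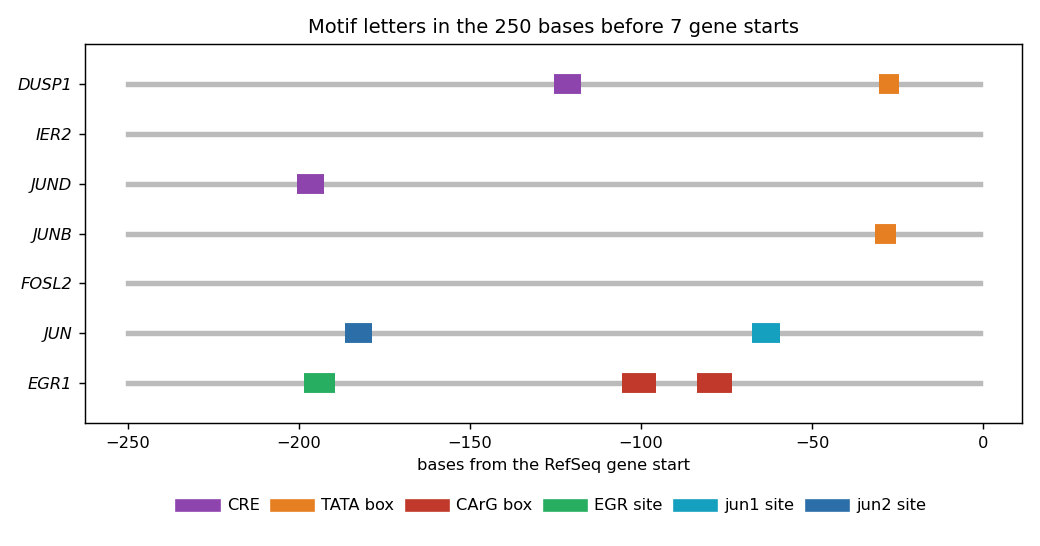
Positions of motif letters in the 250 bases before the RefSeq start of 7 genes (horizontal axis, bases from the start; coloured blocks, motifs). DUSP1 and JUND each hold a CRE, EGR1 holds 2 CArG boxes and an EGR site, JUN holds jun1 and jun2, and the lines of IER2 and FOSL2 are empty.

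The Jun subunits carry the activation domain of most AP-1 dimers. JUN, the founding member and a strong activator, was at 58.29, 61.62 and 59.06 CPM in the AIL libraries, against 64.07, 65.77 and 63.79 CPM in the DMSO libraries. All AIL libraries lay below all DMSO libraries, but the gap between the nearest libraries was small. JUN averaged 59.7 ± 1.74 CPM under AIL and 64.5 ± 1.07 CPM under DMSO (SD, n = 3 each), which gave a log2 difference of -0.11 (standard error 0.0339, limma adjusted p = 0.00988). All log2 differences are of log2(CPM + 1), AIL minus DMSO, which understates the change of low genes. The JUN call was lost without AIL replicate 1 (limma adjusted p = 0.0532) and without DMSO replicate 2 (limma adjusted p = 0.055).

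JUNB, which activates weakly and can hold JUN back, was at 30.12, 30.11 and 25.59 CPM under AIL, against 29.10, 32.72 and 28.16 CPM under DMSO. These groups overlapped, and the lowest value was in AIL replicate 3. The log2 difference of JUNB was -0.07 (95% interval -0.20 to 0.06, limma adjusted p = 0.383). JUND, a subunit present in many resting cells, was at 33.54, 33.59 and 29.82 CPM under AIL, against 36.20, 34.54 and 27.77 CPM under DMSO. Its DMSO libraries spanned the AIL libraries on both sides, and their coefficient of variation of 13.6% was the widest of any of the 10 genes in either group. The log2 difference of JUND was -0.02, with a 95% interval of -0.17 to 0.14 and a limma adjusted p of 0.870.

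The Fos subunits measured here are the 2 Fos-related antigens, which lack the strong activation domain of FOS and are common in mesenchymal and tumour cells. FOSL1 (Fra-1) was at 44.55, 42.55 and 42.66 CPM under AIL, against 43.48, 38.99 and 40.02 CPM under DMSO. DMSO replicate 1 lay above 2 of the AIL libraries, so the groups overlapped. FOSL1 had a log2 difference of 0.08 (95% interval -0.01 to 0.17, limma adjusted p = 0.117). With the replicate number as a block the limma adjusted p was 0.0494, and without DMSO replicate 1 it was 0.0257, so this gene stood on either side of the threshold by the setting. FOSL2 (Fra-2) was at 93.64, 97.65 and 97.10 CPM under AIL, against 101.31, 97.95 and 99.35 CPM under DMSO. Its AIL libraries lay below the DMSO libraries without overlap, by 0.05 on the log2 scale (95% interval -0.11 to 0.01), and the difference did not pass the test (limma adjusted p = 0.170).

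EGR1 is a zinc finger factor of the same early wave, switched on through serum response factor. It was at 10.15, 10.59 and 9.86 CPM in the AIL libraries, against 12.63, 13.50 and 11.80 CPM in the DMSO libraries. The groups were apart, with the highest AIL library below the lowest DMSO library. EGR1 averaged 10.2 ± 0.368 CPM under AIL and 12.6 ± 0.850 CPM under DMSO (SD, n = 3 each), 19.3% lower. Its log2 difference was -0.28 (standard error 0.0628, limma adjusted p = 0.00103). It was also the least abundant of the 10 genes, yet its value in AIL replicate 3 still rested on about 354 reads.

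IER2, a nuclear protein of the early response with a role in transcription, was at 47.26, 49.79 and 44.56 CPM under AIL, against 42.40, 39.71 and 38.54 CPM under DMSO. Each AIL library was above each DMSO library, though AIL replicate 3 was near DMSO replicate 1. IER2 averaged 47.2 ± 2.62 CPM under AIL and 40.2 ± 1.98 CPM under DMSO (SD, n = 3 each), with a log2 difference of 0.23 (standard error 0.0455, limma adjusted p = 4.51e-04). IER3, also called IEX-1, is a stress-induced protein that affects cell survival and prolongs ERK signalling. It was at 68.97, 66.85 and 59.20 CPM under AIL, against 46.21, 46.01 and 45.38 CPM under DMSO. The DMSO libraries were nearly equal, and the AIL libraries stood well above them with AIL replicate 3 the lowest. IER3 averaged 65.0 ± 5.14 CPM under AIL and 45.9 ± 0.433 CPM under DMSO (SD, n = 3 each), and the log2 difference was 0.49 (standard error 0.0458, limma adjusted p = 1.07e-07). In GENCODE 29, exons on the opposite strand overlap those of IER2 (AC011446.2) and IER3 (IER3-AS1), and the use of strand in counting is not given in the sources used here, so reads of these partners cannot be told apart from those of IER2 and IER3.

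DUSP1, also called MKP-1, is a nuclear phosphatase that inactivates p38, JNK and ERK. It was at 44.92, 44.57 and 42.69 CPM in the AIL libraries, against 28.42, 28.63 and 28.72 CPM in the DMSO libraries. Both groups were tight and far apart, the coefficient of variation under DMSO being 0.538%. DUSP1 averaged 44.1 ± 1.20 CPM under AIL and 28.6 ± 0.154 CPM under DMSO (SD, n = 3 each), 54.1% higher, with a log2 difference of 0.61 (standard error 0.0391, limma adjusted p = 1.28e-09). Of all genes tested, 156, DUSP1 included, had a log2 difference at least this large in either direction. DUSP5, a nuclear phosphatase with a preference for ERK, was at 103.68, 105.66 and 99.69 CPM under AIL, against 78.66, 75.88 and 75.57 CPM under DMSO. Again no library of one group came near the other group. The means of DUSP5 were 103.0 ± 3.04 CPM under AIL and 76.7 ± 1.70 CPM under DMSO (SD, n = 3 each), and its log2 difference was 0.42 (standard error 0.0319, limma adjusted p = 9.43e-09). The calls of DUSP1, DUSP5, IER3, IER2 and EGR1 were made in each of the 14 alternative fits.

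**Figure D2:**
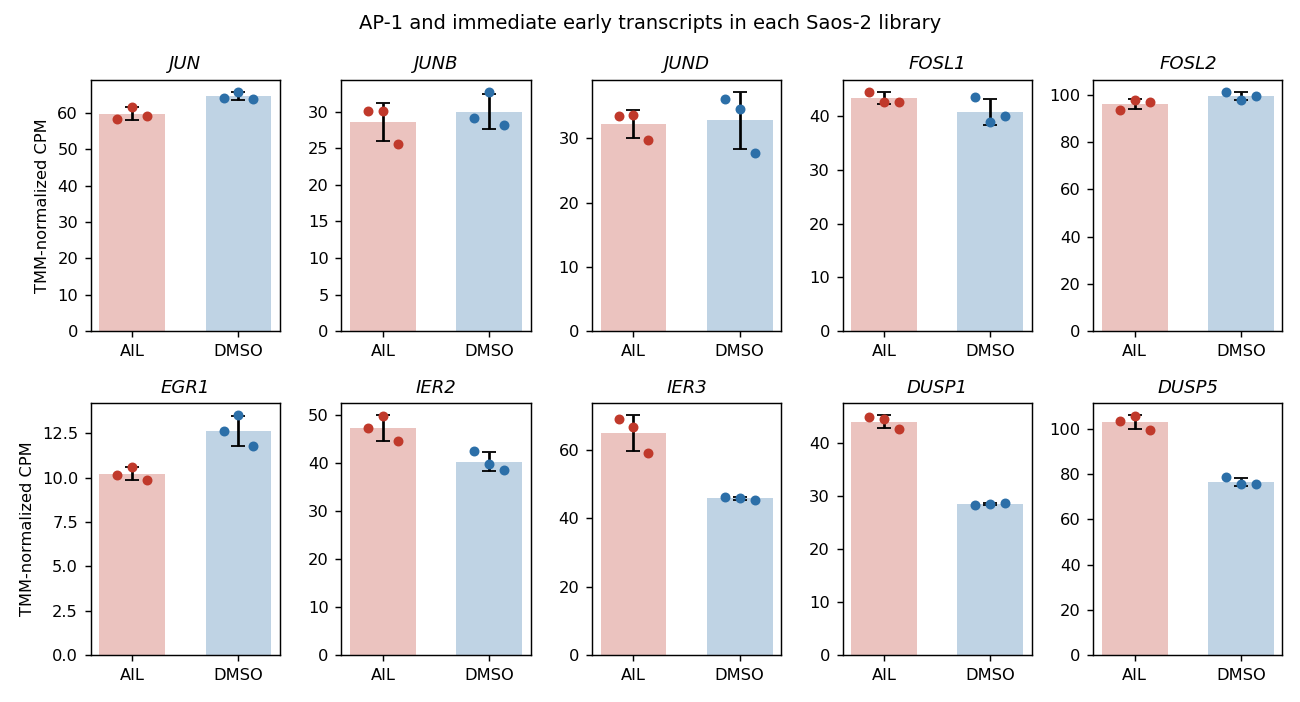
TMM-normalized CPM (vertical axes, from 0) of the 10 genes in the AIL libraries (red) and the DMSO libraries (blue); points are libraries in the order of replicates 1 to 3, and bars and error bars are mean and SD (n = 3). DUSP1, IER3 and DUSP5 are separated most, with DUSP1 at 42.69 to 44.92 CPM under AIL and 28.42 to 28.72 CPM under DMSO, while JUNB and JUND overlap.

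**Figure D3:**
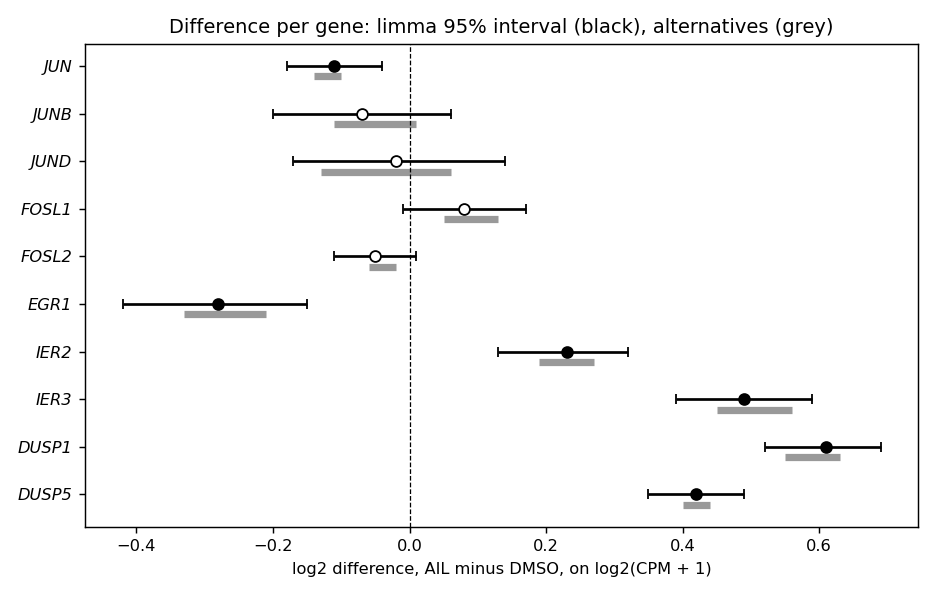
Log2 difference of each gene, AIL minus DMSO, with its limma 95% interval in black (filled points passed an adjusted p of 0.05) and the range over 14 alternative fits in grey. The intervals of JUNB, JUND, FOSL1 and FOSL2 include 0, and that of DUSP1 runs from 0.52 to 0.69.

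Among the libraries, AIL replicate 3 was the lowest of the AIL group for 7 of the 10 genes, and DMSO replicate 3 was the lowest of the DMSO group for 7 of them. These counts were not set beside all genes tested. Some rest on near ties, such as DUSP5 at 75.57 CPM in DMSO replicate 3 and 75.88 CPM in DMSO replicate 2. Leaving out AIL replicate 3 gave log2 differences of 0.63 for DUSP1, 0.56 for IER3, 0.44 for DUSP5, 0.27 for IER2, -0.26 for EGR1 and -0.11 for JUN, with the same 6 genes called.

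Ratios of these transcripts within a library do not depend on its scaling and are given as a description. The log2 ratio of DUSP1 to DUSP5 was -1.21, -1.25 and -1.22 under AIL, against -1.47, -1.41 and -1.40 under DMSO. DUSP1 thus gained on DUSP5 in each AIL library, by 0.20 on average. The log2 ratio of FOSL1 to FOSL2 was -1.07, -1.20 and -1.19 under AIL, against -1.22, -1.33 and -1.31 under DMSO, with no overlap and a difference of 0.13. For the Jun subunits the ratios of the groups overlapped. The log2 ratio of JUN to JUND was 0.80, 0.88 and 0.99 under AIL, against 0.82, 0.93 and 1.20 under DMSO, lower under AIL in each pair of same-numbered replicates. It averaged 0.89 ± 0.09 under AIL and 0.98 ± 0.19 under DMSO (SD, n = 3 each), a difference below the DMSO spread but not below that of AIL. JUNB to JUND was at -0.18 ± 0.04 under AIL and -0.12 ± 0.17 under DMSO, and JUN to JUNB at 1.06 ± 0.13 under AIL and 1.11 ± 0.09 under DMSO.

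To set levels of different genes beside each other, CPM was divided by the length in kb of the longest coding transcript of each gene in GENCODE 29. The transcripts the authors counted are not known, so these levels are approximate. Under AIL the order was IER3 (48.2 ± 3.81 CPM per kb), DUSP5 (40.3 ± 1.19), FOSL1 (25.9 ± 0.674), DUSP1 (21.8 ± 0.594), JUND (17.3 ± 1.16), JUN (16.9 ± 0.492), IER2 (16.1 ± 0.891), JUNB (15.7 ± 1.44), FOSL2 (14.3 ± 0.324) and EGR1 (3.25 ± 0.117), with SD over 3 libraries. The replicate ranges of JUND and JUN, of JUN and IER2, of IER2 and JUNB, and of JUNB and FOSL2 overlapped, and those of the other neighbours did not. Under DMSO IER3 (34.0 ± 0.321 CPM per kb), DUSP5 (30.0 ± 0.665) and FOSL1 (24.5 ± 1.41) also came first and EGR1 (4.03 ± 0.271) last, whereas DUSP1 (14.2 ± 0.0762) was at place 8, against place 4 under AIL, with a range just below that of FOSL2 and inside that of IER2 (13.7 ± 0.675). FOS itself, the partner of JUN in the classical AP-1 dimer, was far lower per length, at 1.12 to 1.32 CPM per kb under AIL and 0.955 to 1.20 CPM per kb under DMSO.

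**Figure D4:**
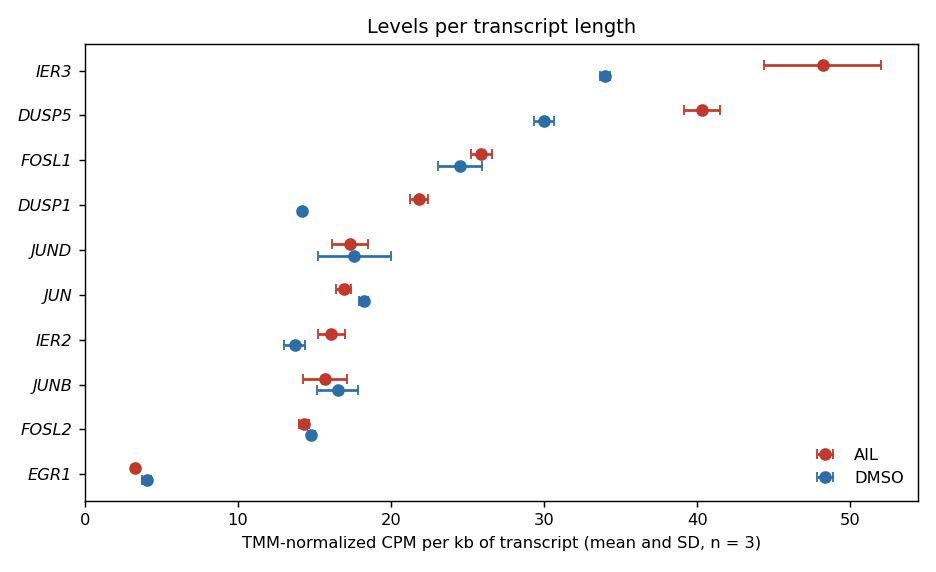
CPM per kb of transcript of the 10 genes (mean and SD, n = 3) under AIL (red, upper point) and DMSO (blue, lower point), ordered by the AIL mean. IER3 and DUSP5 are highest and EGR1 is lowest in both groups, and DUSP1 has moved past JUND, JUN, JUNB and FOSL2 under AIL.

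For each called gene, the 2 genes with the nearest profile over the 6 libraries were found by Euclidean distance between centred log2(CPM + 1) values, among the 9723 genes that averaged 5 CPM or more. For DUSP1 these were FOXL1, which averaged 46.0 ± 1.11 CPM under AIL and 29.8 ± 0.622 CPM under DMSO (distance 0.0513), and ZNF33B (0.0519). For IER3 they were HSF1 (0.0535) and AMDHD2 (0.0621), and for DUSP5 PTBP1 (0.0304) and PGLS (0.0376). CLPP (0.0347) and RBM42 (0.0558) were nearest to IER2, C3orf52 (0.0703) and PROCR (0.0731) to EGR1, and GLTP (0.0305) and NSFL1C (0.0395) to JUN. With 2 groups, a near profile mostly means a similar difference between them, as for FOXL1 and DUSP1, both at a log2 difference of 0.61. Any gene has a nearest one by this measure, and shared regulation was not tested.

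The lists that follow are read beside all genes tested, of which 28.2% were called higher and 25.9% lower (54.1% together), with a median log2 difference of 0.01; whether a list differs from these shares was not tested. Of 7 tested other dimer partners of AP-1, 3 rose and 1 fell (57.1% called), with a median log2 difference of 0.12. BATF3, a small leucine zipper partner of Jun proteins, averaged 9.29 ± 0.911 CPM under AIL and 6.72 ± 0.707 CPM under DMSO (SD, n = 3 each, limma adjusted p = 3.70e-04). ATF7, related to ATF2, rose by 0.23 on the log2 scale (limma adjusted p = 0.00472). ATF2, the JUN partner at the jun sites printed above, fell by 0.12 (limma adjusted p = 0.00372). ATF3, a stress-induced member, was at 1.94, 2.10 and 2.03 CPM under AIL, against 1.51, 1.33 and 1.62 CPM under DMSO (limma adjusted p = 0.0183, and 0.0568 without AIL replicate 2 or 0.0804 without DMSO replicate 2). FOS stood at 2.65 ± 0.217 CPM under AIL and 2.37 ± 0.280 CPM under DMSO and did not pass (limma adjusted p = 0.317). FOSB averaged 0.320 CPM under AIL and 0.363 CPM under DMSO, below the filter.

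Other immediate early genes went both ways. Of 19 tested, 7 rose and 7 fell (73.7% called, against 54.1% of all genes tested), with a median of 0.06. Without DMSO replicate 2, 4 fell. IER5L, a relative of the IER proteins, averaged 18.1 ± 0.746 CPM under AIL and 24.2 ± 1.52 CPM under DMSO (log2 difference -0.40, limma adjusted p = 9.24e-06). CYR61, a secreted matrix protein, fell by 0.21. The zinc finger gene KLF6 rose by 0.23, NFKBIZ, a nuclear regulator of NF-kB, by 0.25, and MCL1, which opposes apoptosis, by 0.17. EGR2 and EGR3, the nearest relatives of EGR1, were near 0, with at most 0.12 CPM of EGR2 and 0.06 CPM of EGR3 in any library.

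Of 13 tested factors that act on the promoters of these genes, 2 rose and 3 fell, with a median of -0.03. That is 38.5% called, against 54.1% of all genes tested. NAB1, a corepressor that binds EGR1, averaged 75.6 ± 2.21 CPM under AIL and 94.0 ± 1.60 CPM under DMSO (SD, n = 3 each, log2 difference -0.31, limma adjusted p = 3.08e-07). CREB1, which binds the CRE, fell by 0.22 (limma adjusted p = 2.21e-05), and the ternary complex factors ELK3 and ELK4 changed by -0.12 and 0.14. MEF2D, a relative of serum response factor, rose by 0.26. SRF itself, which is also counted among the other immediate early genes, stood at 45.3 ± 2.38 CPM under AIL and 43.9 ± 3.57 CPM under DMSO (limma adjusted p = 0.484).

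In the MAP kinase cascade, 14 of 30 tested genes fell and 7 rose (70% called, against 54.1% of all genes tested), with a median of -0.01. RPS6KA3, the ERK-activated kinase RSK2, averaged 57.9 ± 0.648 CPM under AIL and 74.7 ± 2.09 CPM under DMSO (log2 difference -0.36, limma adjusted p = 8.00e-08). The kinases MAP3K5 and MAP3K7, which start JNK and p38 signalling, fell by 0.39 and 0.22, and the JNK gene MAPK9 by 0.28. MAP3K1, another starter of JNK signalling, averaged 32.0 ± 0.624 CPM under AIL and 23.8 ± 0.709 CPM under DMSO and rose by 0.41 (limma adjusted p = 4.77e-07).

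Among 13 other phosphatases and feedback inhibitors tested, 3 rose and 4 fell (53.8% called, against 54.1% of all genes tested), with a median of 0.05. With no filter on low values, 5 rose. ERRFI1, an inhibitor of EGF receptors, averaged 372.6 ± 5.12 CPM under AIL and 270.9 ± 5.00 CPM under DMSO (SD, n = 3 each, log2 difference 0.46, limma adjusted p = 1.97e-10). DUSP10, a phosphatase of p38 and JNK, rose by 0.22. DUSP6, the cytoplasmic ERK phosphatase, averaged 64.9 ± 3.13 CPM under AIL and 76.2 ± 0.881 CPM under DMSO and fell by 0.23 (limma adjusted p = 4.11e-05). The Ras pathway inhibitor SPRY4 and the phosphatase gene DUSP14 fell by 0.17 and 0.21.

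Known AP-1 targets were also mixed, with 5 of 18 tested genes higher, 9 lower (77.8% called, against 54.1% of all genes tested) and a median of -0.06. The matrix metalloproteinase gene MMP3 had the largest difference in this list, with 43.2 ± 2.28 CPM under AIL and 17.7 ± 1.37 CPM under DMSO (SD, n = 3 each, log2 difference 1.24, limma adjusted p = 1.55e-11). HMOX1, which degrades haem, and the cytokine gene IL6 rose by 0.72 and 0.55. The integrin gene ITGA5 averaged 23.9 ± 1.26 CPM under AIL and 37.0 ± 0.918 CPM under DMSO (log2 difference -0.61, limma adjusted p = 8.69e-09), and the gene of its ligand fibronectin, FN1, fell by 0.43. Of 9 genes for turnover and coactivation of AP-1, 5 rose and 1 fell (66.7% called, against 54.1% of all genes tested), with a median of 0.10. COPS5, which binds JUN, rose by 0.15 (limma adjusted p = 2.35e-04). In this last list 3 genes rose without AIL replicate 3, DMSO replicate 1 or DMSO replicate 2, and 0 fell in 4 of the 6 fits without 1 library and in the fit with no filter on low values.

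**Figure D5:**
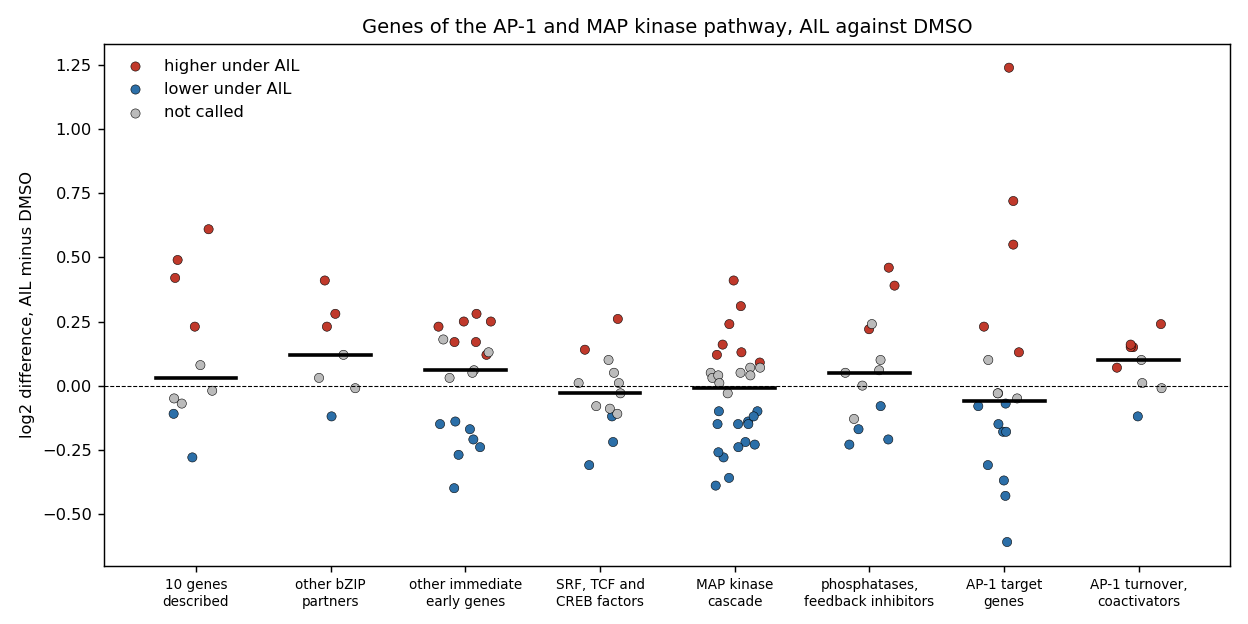
Log2 difference, AIL minus DMSO (vertical axis), of the 10 genes and of the tested genes of 7 related lists; red, blue and grey points are genes called higher, called lower and not called, and black lines are medians. Each column holds points on both sides of 0, and medians lie between -0.06 and 0.12.

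Over the whole data set, library size was read from the step of the low values, which equals 1 read. It came to 35910000 to 38050000 TMM-scaled reads under AIL and 32540000 to 35830000 under DMSO, and the listed genes held 85.7 to 87.2% of it under AIL and 84.4 to 85.0% under DMSO. The values of the 10 genes rested on 354 to 3945 reads a library. Transcripts of the mitochondrial genome, taken as a sign of RNA quality, summed to 3600.5 to 3726.0 CPM under AIL and 4205.4 to 4373.7 CPM under DMSO, with 10 of 13 lower and 0 higher and a median of -0.20. Their part in the differences of the 10 genes and of the lists was not tested. Of the osteoblast markers set down for this line, RUNX2 (4.72 ± 0.287 CPM under AIL and 4.66 ± 0.295 CPM under DMSO) passed the filter, SPP1 and BGLAP were at a mean of at most 0.223 CPM in either group, and the others are not reported here. Of the markers of blood, endothelial, epithelial, muscle and glial cells, CDH5 and MYH11 were listed, with at most 0.12 CPM of CDH5 and 0.03 CPM of MYH11 in any library.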

How the data were processed

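RNA of Saos-2 cells in 3 AIL and 3 DMSO samples was sequenced after an Illumina TruSeq preparation, per the labels' protocols. The authors deposited TMM-normalized CPM with 2 decimals, per the file headers and values. RSEM and edgeR 3.8.5 are named in the submitters' processing notes without a role. No source used here gives the aligner, genome build, annotation or strand setting. TMM assumes that most genes keep their level, so a shift shared by nearly all transcripts would be hidden.

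Here the 11069 genes that averaged 1 CPM or more were tested with limma 3.58.1 (R 4.3.3) on log2(CPM + 1), with an intensity trend, two-sided, no covariate and Benjamini-Hochberg adjustment over all of them. The test was checked on simulated data. Low values were multiples of a step in each library (99.95 to 99.98% of values under 20 CPM within rounding), but with 2 decimals too few of them gave whole reads (95% were needed), so the planned count tests were not run and tests stayed on the log scale.

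The members and lists were chosen with earlier results of these data known, and lists are described by counts and medians beside those of all genes. Named genes were the 10 members, up to 5 genes of each list with the smallest p, and the 2 genes nearest in profile to each called member. EGR2, EGR3, FOSB and SRF were added after their values were seen. To see whether the replicate numbers pair the libraries, deviations were compared. Those from group means correlated at 0.159, 0.133 and 0.129 between same-numbered AIL and DMSO libraries, above the bound of 0.1 for each pair. Between libraries of different number they correlated at -0.179 to 0.021. Deviations sum to 0 within a group, so these correlations are not independent, and whether they exceed chance was not tested. A fit with the number as a block is therefore given only beside each named gene whose call it changes. Counts of lists under the block are in the closing section. The pairing comes from the data and the titles alone. Alternatives were pseudocounts of 0.1 and 5, no filter, a mean of 5 CPM, median-of-ratios scaling, quantile normalization, no trend, the block, and leaving out each library. Of the 50-base words of the 10 genes in GENCODE 29, 2.91% of those of FOSL1 occur in another gene (its pseudogene FOSL1P1) and 0% of those of the other 9. Promoter sequences and gene starts are from RefSeq (GRCh38.p14).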

Additional observations from a re-analysis of the deposited data

How the results depend on the processing

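Calls of DUSP1 (log2 difference 0.55 to 0.63), IER3 (0.45 to 0.56), DUSP5 (0.40 to 0.44), IER2 (0.19 to 0.27) and EGR1 (-0.33 to -0.21) were made in all 14 alternative fits. JUN kept its direction (-0.14 to -0.10) and was called in 12 of them. With JUN lost, the number of the 10 genes called lower ran from 1 to 2 over the fits without 1 library, and those called higher from 4 to 5. With the replicate number as a block, FOSL1 joined them (log2 difference 0.08, limma adjusted p = 0.0494, 5 higher), and the block changed the call of no other named gene. Under the block 8 other immediate early genes rose (7 without it), 3 promoter factors rose (2 without it), 6 AP-1 targets rose and 10 fell (5 and 9 without it), and 6 turnover and coactivator genes rose (5 without it). FOSL1 was also called without DMSO replicate 1. JUNB and JUND, never called, turned sign when a library was left out: JUNB ran from -0.11 to 0.01 (0.01 without AIL replicate 3), and JUND from -0.13 to 0.06 (0.02 to 0.06 without AIL replicate 3, DMSO replicate 1 or DMSO replicate 2). The uncalled RUNX2 ran from -0.02 to 0.05 in these fits and turned to -0.03 with quantile normalization. The cause was not tested. The count of genes called over the whole table stayed within 1.5 times in all of these fits. With a pseudocount of 1, each ratio within a library moved by less than the larger of its group SDs. The edgeR and DESeq2 tests planned on recovered reads were not run. With 3 libraries a group, the calls of JUN and FOSL1, with differences near 0.1 on the log2 scale, changed with the libraries or the setting used. Some genes of the lists with differences as small were called in the main fit, so 0.1 is not a general limit. Low transcripts such as FOSB, EGR2 and EGR3 could not be compared at this depth.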
